A study of Caenorhabditis elegans with 8 samples.

Results

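The nhr genes of Caenorhabditis elegans encode nuclear hormone receptors, and their RNA was followed here across wild-type and hizr-1 mutant cultures with and without cadmium. The member rule used name and count only, and it was chosen with earlier results of these data known. Every gene whose symbol starts with nhr- was taken, and those with 10 or more reads in at least 2 of the 8 libraries were kept. Of 269 nhr genes, 187 met this rule (69.5%, against 76.6% of protein-coding genes). The files held 46726 genes of all kinds, of which 16027 met it. The hizr-1 gene itself belongs to the same receptor family but has another symbol, and it is reported beside the members and not among them.

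Nuclear hormone receptors are transcription factors that pair a zinc finger DNA-binding domain with a domain that can bind a small molecule, such as a steroid or a fatty acid. Nematodes carry an unusually large set of them, and most descend from an ancestor related to the mammalian receptor HNF4. Some act in fat metabolism, fasting, moulting, or the response to foreign compounds and pathogens, and most have no described function. HIZR-1 is the receptor that senses high zinc and activates genes for zinc storage and detoxification, and the series asked how cadmium acts through it.

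Whole animals of mixed stages were grown for 4 days from 3 L4 hermaphrodites a plate, then held for 16 to 18 h at 20 °C on minimal medium plates (noble agar) with a dense lawn of E. coli OP50. The medium held either no cadmium chloride or 100 mM as the labels write it, a unit that could not be checked here and lies far above doses usual for this animal. The wild type was strain N2, and the mutant was an N2 derivative with the loss-of-function hizr-1 allele am286, so every mutant value comes from a single allele. Each of the 4 groups held 2 samples of animals pooled from 10 plates, and both genotypes were cultured side by side, so a p-value here reflects only how far such cultures vary. Because the RNA came from whole animals, fewer cells of a type and less RNA per cell cannot be told apart.

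Total counts were 17681352 to 29586507 per library, and the 269 nhr genes together took 0.149 to 0.208% of them. In the wild type hizr-1 had counts of 57 and 52 without cadmium and 101 and 77 with it, against 18 and 7 in the mutant without and 20 and 18 with cadmium, so every mutant library lay below every wild-type library. All 5 listed hizr-1 targets, mtl-1 and mtl-2 (metallothioneins), the cadmium-responsive gene cdr-1 and the zinc transporter genes cdf-2 and ttm-1, rose with cadmium in the wild type, and 0 of 5 passed in the mutant. Libraries differed in their cell and stage markers. The summed level of 23 sperm markers for wild-type libraries was 92.2 and 190 CPM (TMM-scaled) without cadmium, 28.8 and 61.8 CPM with it, and 189 to 301 CPM in the mutant libraries. The 15 moulting markers summed to 794 and 527 CPM, 933 and 616 CPM, and 546 to 660 CPM in the same order, and 0 of these 23 and 15 markers were at 0 in all libraries.

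The nhr genes were mostly weakly expressed. Per length, the median member had a mean level of 2.39 RPKM (TMM-scaled, per length and depth) over the 8 libraries, with quartiles of 1.09 and 5.85 RPKM. The median of the 15020 protein-coding genes that met the same count rule was 8.07 RPKM. Of the 187 members 25 reached 10 RPKM and 44 were below 1 RPKM, and 162 members had 10 or more counts in every library. The 10 highest members held 37.3% of the summed RPKM of the family, and the 20 highest 50.5%.

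The 2 highest members were nhr-97 and nhr-114. For nhr-97 (WBGene00003687, chromosome IV, 9757648 to 9764487, + strand, 9 exon blocks) wild-type levels were 62.9 and 50.04 RPKM without cadmium and 69.5 and 53.6 RPKM with it. It was 50.1 and 58.1 RPKM in the mutant without cadmium and 51.4 and 51.9 RPKM with it. Both wild-type cadmium libraries lay above both mutant cadmium libraries, and the groups overlapped with and without cadmium in each genotype. For nhr-114 (WBGene00003704, chromosome V, 4187185 to 4190006, + strand, 6 exon blocks), which protects the germline on some diets and acts in the methionine cycle, the values in the same order were 55.5 and 60, 49.1 and 48.2, 58.1 and 59.8, and 47.4 and 54.1 RPKM. All 4 cadmium libraries of nhr-114 lay below all 4 libraries without cadmium. Neighbours in the order of levels did not differ beyond their spread at the top, since nhr-97 had 55.9 ± 7.06 and nhr-114 had 54.02 ± 5.21 RPKM (SD over the 8 libraries).

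Next in level were 4 receptors with described roles. The receptor gene nhr-86, whose product senses a metabolite of pathogenic Pseudomonas and switches on immune genes, had a mean of 42.2 ± 2.66 RPKM (SD, n = 8). The fasting and fat desaturation regulator nhr-49 had 39.8 ± 2.19 RPKM and its partner in lipid remodelling nhr-66 had 36.3 ± 2.60 RPKM. The propionate shunt regulator nhr-68 had 34.4 ± 4.6 RPKM. An opposite-strand gene, serp-1.2, shares 15.04% of the exon length of nhr-66 and had 325 to 1237 counts, and the strand setting of the counting is not given in the sources used here, so their reads cannot be told apart there. The other 4 genes complete the highest 10, with nhr-17 at 33.3 RPKM, nhr-274 at 27.1, nhr-31, a gene needed in the excretory canal cell, at 23.9, and nhr-46 at 18.99 RPKM.

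**Figure D1:**
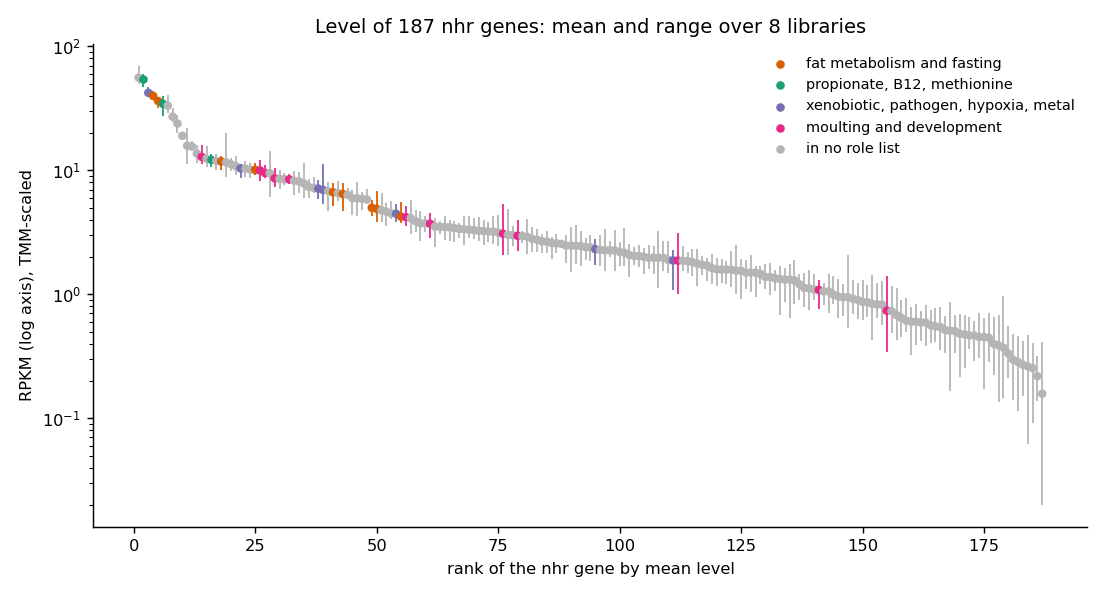
Mean level of each of the 187 nhr genes in RPKM on a log axis against its rank, with a line from the lowest to the highest of the 8 libraries (a level of 0 is drawn at 0.02 RPKM). Colours mark the 31 receptors in 4 lists by role, of which 26 lie above the family's median of 2.39 RPKM.

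Most receptors picked for the role lists stood high in the family. All 31 receptors of 4 role lists met the count rule, and 26 of them lay above the family's median level. They held 37.5% of the summed RPKM, and the other 156 members held 62.5%. These 156 are not all without a described role, since nhr-31 is among them. The 9 receptors of fat metabolism and fasting ranged from 4.23 to 39.8 RPKM, and the 3 receptors of propionate, vitamin B12 and methionine metabolism from 12.1 to 54.02 RPKM. The 7 receptors of xenobiotic, pathogen, hypoxia and metal responses ranged from 1.87 to 42.2 RPKM. The 12 receptors of moulting and development were the lowest list, with a median of 3.95 RPKM and a range from 0.737 to 12.8 RPKM. Its lowest gene, nhr-60, shares 18.5% of its exon length with opposite-strand F57A10.4, which had 145 to 306 counts. Reads of the overlap cannot be told apart. These lists hold genes that were studied, so their levels describe the lists and do not test them.

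Median levels of members differed between chromosomes, and levels of all protein-coding genes by chromosome were not compared. Chromosome V carried 167 of the 269 nhr genes, or 62.1%, against 25.1% of all protein-coding genes. Of the chromosome V nhr genes 119 met the count rule, with a median of 1.70 RPKM, and the 16 members on chromosome X had a median of 7.17 RPKM. Chromosomes I, II, III and IV had medians of 5.82, 5.94, 6.45 and 3.72 RPKM. The rule kept 71.3% of nhr genes on chromosome V, against 60.2% of protein-coding genes there, and 84.8% on chromosome IV, against 77.9%. On chromosome I it kept 43.5% of nhr genes, against 85.6% of protein-coding genes. Of the 269 genes 159 lay within 10000 bases of another nhr gene, in 44 runs. Members in such runs had a median of 1.75 RPKM and members that stood alone had a median of 4.19 RPKM. Many runs lay on chromosome V, and run and chromosome were not separated.

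The longest run held 12 genes on chromosome V from 451451 to 497287 (nhr-123 at one end and nhr-131 at the other), all of which met the count rule at 0.545 to 3.73 RPKM. In contrast, a run of 8 genes from 15674026 to 15702362 on the same chromosome had 1 member by the rule, and its genes ranged from 0.0215 to 3.47 RPKM. Near-identical neighbours may share reads, and how reads with several matches were counted is not given in the sources used here. Exons of 26 members overlap exons of a gene on the other strand.

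At the edge of the count rule, 4 members reached 10 counts in exactly 2 libraries, nhr-171, nhr-185, nhr-249 and nhr-263, with 39 to 62 reads over all 8 libraries. A further 12 nhr genes reached 10 counts in 1 library and were left out, among them nhr-260 with 60 reads in all and nhr-234 with 24. Another 68 had reads but never 10 in a library, and 2, nhr-259 and nhr-264, had none. A count of 0 in a library allows up to 3 counts, or 0.101 to 0.170 CPM of the total counts, before TMM scaling. Members nhr-171, nhr-249 and nhr-263 did not pass the expression filter of the test, which left 184 members among 15818 genes.

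The question of the cadmium comparison in the wild type was whether the level of any nhr gene differed with the metal. By edgeR's quasi-likelihood test with Benjamini-Hochberg adjustment 0 of 184 members passed at an adjusted p of 0.05, where 0.284% of all genes tested passed. DESeq2 and limma-voom also gave 0, and the unadjusted p was below 0.05 at 9 members (4.89%) by edgeR, 3 by DESeq2 and 9 by limma-voom, against 11.5% of all genes by edgeR. DESeq2 gave no adjusted p for 22 members here, 22 for cadmium averaged over genotype and 11 for the genotypes without cadmium. For 122 of the 184 the 95% interval of the log2 change lay wholly between -1 and 1, so a 2-fold change lay outside their interval, and for 62 it did not. The SE was smaller at higher counts. The median SE of the log2 change was 0.45 for the 41 members with a mean below 30 counts and 0.18 for the 37 members with a mean over 300.

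**Figure D2:**
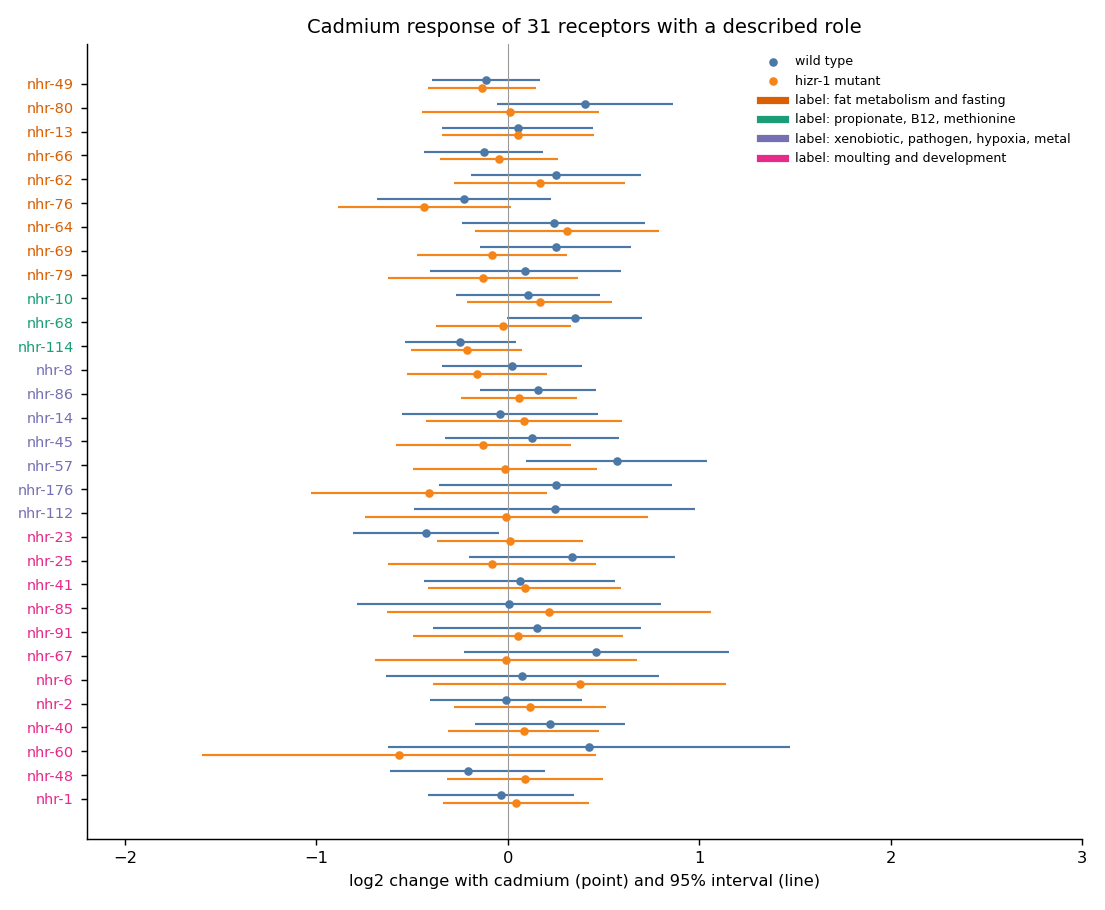
The log2 change with cadmium (points) and its 95% interval (lines) for the 31 receptors of 4 role lists, in the wild type and in the mutant. In the wild type 28 of the 31 intervals lie wholly between -1 and 1, and in the mutant 27.

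Among the 12 receptors of the fat and nutrient lists 0 passed by edgeR's quasi-likelihood test (adjusted p = 0.438 to 0.936). Their differences ran from -0.25 ± 0.134 for nhr-114 to 0.40 ± 0.212 (95% interval -0.056 to 0.864) for nhr-80, which acts with NHR-49 on desaturase genes. The level of nhr-49 was 91.7 and 84.7 CPM without and 80.2 and 82.8 CPM with cadmium in the wild type, a log2 difference of -0.12 ± 0.13 (SE) with a 95% interval of -0.396 to 0.167. For nhr-66 the difference was -0.13 ± 0.142, and for nhr-86, from the stress list, 0.16 ± 0.14 with an interval of -0.147 to 0.462 (adjusted p = 0.686). The 2 propionate shunt regulators nhr-10 and nhr-68 were at 0.11 ± 0.172 and 0.35 ± 0.162. In the list of NHR-49 target genes 1 of 9 tested passed, the stearoyl-CoA desaturase gene fat-7, which fell by 0.94 ± 0.168 (adjusted p = 0.0433). In the mutant fat-7 differed by -1.06 ± 0.167, which did not pass (adjusted p = 0.084), and averaged over genotype it fell by 1.00 ± 0.118 (adjusted p = 0.00407), and the interaction was -0.12 ± 0.235. Of the 5 propionate shunt genes 0 passed in the wild type, with a median log2 change of -0.05. The median over all genes tested was -0.01.

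Among receptors of stress responses nhr-57, a target of the hypoxia factor HIF-1 (WBGene00003647, chromosome V, 4131925 to 4134945, + strand, 8 exon blocks), had 9.23 and 8.54 CPM without and 15.2 and 11.1 CPM with cadmium in the wild type. Both cadmium libraries lay above both without cadmium, but the difference of 0.57 ± 0.217 (95% interval 0.097 to 1.04) did not pass (adjusted p = 0.36). In the mutant nhr-57 had 8.36 and 7.59 CPM without and 8.45 and 7.32 CPM with cadmium, a log2 difference of -0.02 ± 0.222. Of 5 other HIF-1 targets 0 passed in the wild type, with values from -0.23 ± 0.16 for rhy-1 to 0.24 ± 0.202 for phy-2. The xenobiotic and cholesterol receptor nhr-8 was at 0.02 ± 0.167, nhr-14, which acts in iron uptake and immunity, at -0.04 ± 0.235, and nhr-176, linked to drug metabolism, at 0.25 ± 0.28. The opposite-strand gene F33D4.6 shares 21.99% of the exon length of nhr-8 and had 373 to 973 counts. Their reads cannot be told apart there.

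Of receptors that time development, nhr-23 had the lowest p for a lower level. This orthologue of the vertebrate ROR receptors drives moulting (WBGene00003622, chromosome I, 7214745 to 7221781, + strand, 10 exon blocks). It had 36.4 and 36.2 CPM without cadmium and 27 CPM in both libraries with it in the wild type. The 2 groups did not overlap, yet the change of -0.43 ± 0.176 did not pass (adjusted p = 0.389). In the mutant its levels were 29.5 and 26.9 CPM without and 24.4 and 32.5 CPM with cadmium, which overlapped. Of 15 moulting markers 0 passed and 12 were above 0, with a median of 0.26.

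The largest fitted differences were in sparsely counted genes. For nhr-155 (WBGene00015758, chromosome V, 539202 to 541486, + strand, 10 exon blocks) the counts were 10 and 4 without and 37 and 15 with cadmium in the wild type, and 6, 6, 12 and 8 in the mutant. Its log2 difference was 1.79 ± 0.511 in the wild type (adjusted p = 0.291). For nhr-265 (WBGene00009608, chromosome I, 12251906 to 12253554, + strand, 7 exon blocks) the counts were 9 and 3 without and 21 and 13 with cadmium in the wild type, and 4 and 4 without and 20 and 9 with cadmium in the mutant. Every cadmium library lay above every library without cadmium on the CPM scale, with 0.464 to 0.717 CPM against 0.142 to 0.321 CPM. Its lowest count of 3 lies at the floor given above. Without cadmium libraries neither nhr-155 nor nhr-265 would have met the count rule. The rule therefore favoured a higher level and a clean separation with cadmium in both. The difference for nhr-265 was 1.42 ± 0.531 in the wild type, 1.60 ± 0.587 in the mutant and 1.51 ± 0.396 averaged over both, and none of the 3 passed (adjusted p = 0.356, 1.0 and 0.243). Averaged over genotype 0 of 184 members passed by edgeR, DESeq2 or limma-voom, with 0.171% of all genes passing by edgeR and an unadjusted p below 0.05 at 6, 2 and 6 members, against 10.3% of all genes by edgeR. Above 0 were 135 members (73.4%, against 51.8%), with a median of 0.11. That median was 0.04 with the sperm covariate, 0.06 without wild-type cadmium replicate 1, and 0.17 without mutant replicate 2 lacking cadmium. All 4 cadmium libraries lay above all 4 others in 8 members (4.35%, against 2.57%), nhr-129, nhr-155, nhr-168, nhr-180, nhr-184, nhr-265, nhr-62 and nhr-78, and below in 3 (1.63%, against 1.09%), nhr-114, nhr-49 and nhr-76. The 8 include nhr-155 and nhr-265, in which the count rule favoured this separation, so the share of 4.35% is not free of that rule.

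**Figure D3:**
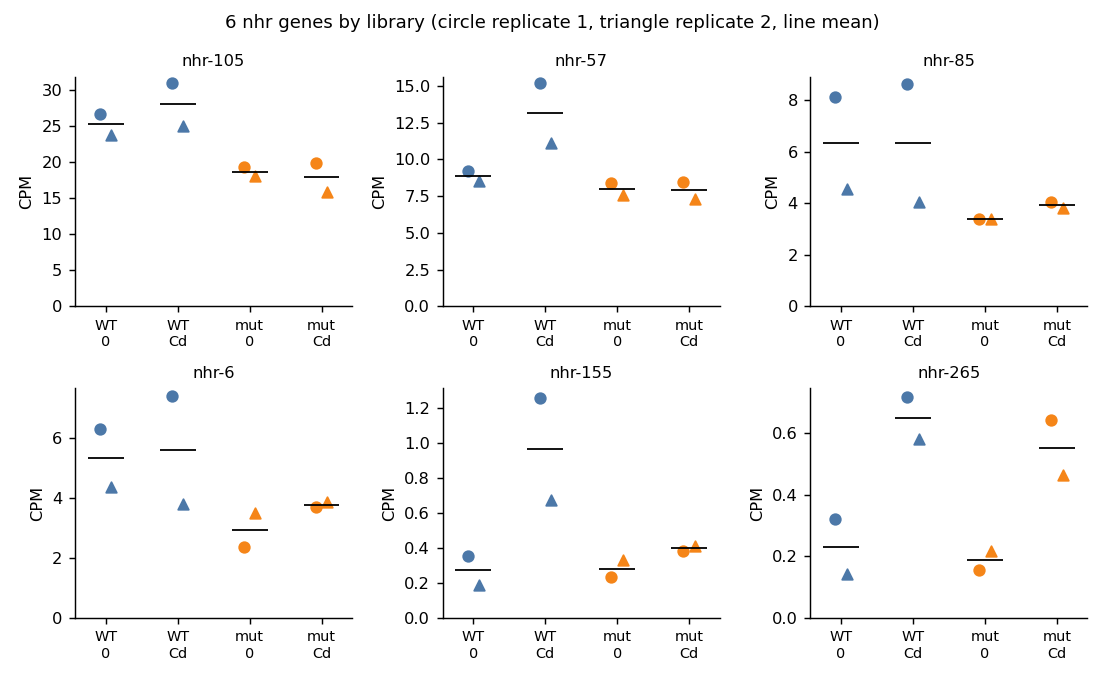
Levels in CPM of 6 nhr genes in each library, with circles for replicate 1, triangles for replicate 2 and a line at the mean of each group. All 4 mutant libraries of nhr-105 lie below all 4 wild-type libraries, and for nhr-85 and nhr-6 the 2 wild-type replicates of each group differ widely.

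In the wild type the family's median was slightly higher with cadmium, with no single member passing. Between replicates the members' median log2 difference was 0.118 without cadmium and 0.191 with it, replicate 1 over replicate 2. Members of a library are not replicates of a condition, so the counts of members below do not test the shift. The log2 change was above 0 for 147 of 184 members (79.9%), against 48.7% of all genes, and the family's median was 0.22 against -0.01. In 75 members both cadmium libraries lay above both libraries without cadmium (40.8%, against 18.3% of all genes), and in 11 both lay below (5.98%, against 21.3%). The 75 include nhr-108, nhr-155, nhr-185, nhr-208 and nhr-265, which would not have met the count rule without cadmium libraries. For nhr-185 these were the mutant's. The count of 75 is therefore not free of the member rule. The sperm markers were lower in the same comparison, 21 of 21 tested below 0 with a median of -1.37, and the neuron markers higher, 12 of 12 above 0 with a median of 0.30. With the sperm median as a covariate the nhr median was 0.04 and 98 members were above 0. That sperm median was 1.67 and 2.63 log2 CPM in wild-type libraries without cadmium and 0.314 and 1.665 with it. Mutant libraries had 2.66 to 3.38, so the covariate cannot be told apart from genotype and cadmium. Without wild-type cadmium replicate 1 the median was 0.10 with 119 members above 0. That library had the lowest sperm and the highest moulting and neuron levels of the 8. The part of these differences in the nhr shift was not tested, and the fit with the covariate does not separate it.

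In the hizr-1 mutant cadmium left the family's median at 0.01, which turned to -0.01 with RLE size factors, and 96 of 184 members were above 0 (52.2%, against 50.4% of all genes). By edgeR, DESeq2 and limma-voom 0 members passed, where 0.0316% of all genes passed by edgeR, and the unadjusted p was below 0.05 at 1, 0 and 1 members, against 1.78% of all genes by edgeR. Both cadmium libraries lay above both others in 37 members (20.1%, against 16.7% of all genes) and below in 28 (15.2%, against 14.9%). The 37 include nhr-108, nhr-155 and nhr-265, which would not have met the count rule without cadmium libraries. The member with the lowest p was nhr-265, described above. On the lower side nhr-76, a gut receptor that takes part in serotonin-driven fat loss, had 8.87 and 10.8 CPM without and 7.26 and 7.22 CPM with cadmium, a difference of -0.44 ± 0.208 (adjusted p = 1.0). Both cadmium libraries lay below both others in each genotype for nhr-76, since the wild type had 7.52 and 7.40 CPM without and 6.69 and 6 CPM with cadmium. For nhr-49 the mutant difference was -0.13 ± 0.13, with a 95% interval of -0.415 to 0.149. The 95% interval lay wholly between -1 and 1 for 126 of the 184 members.

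**Figure D4:**
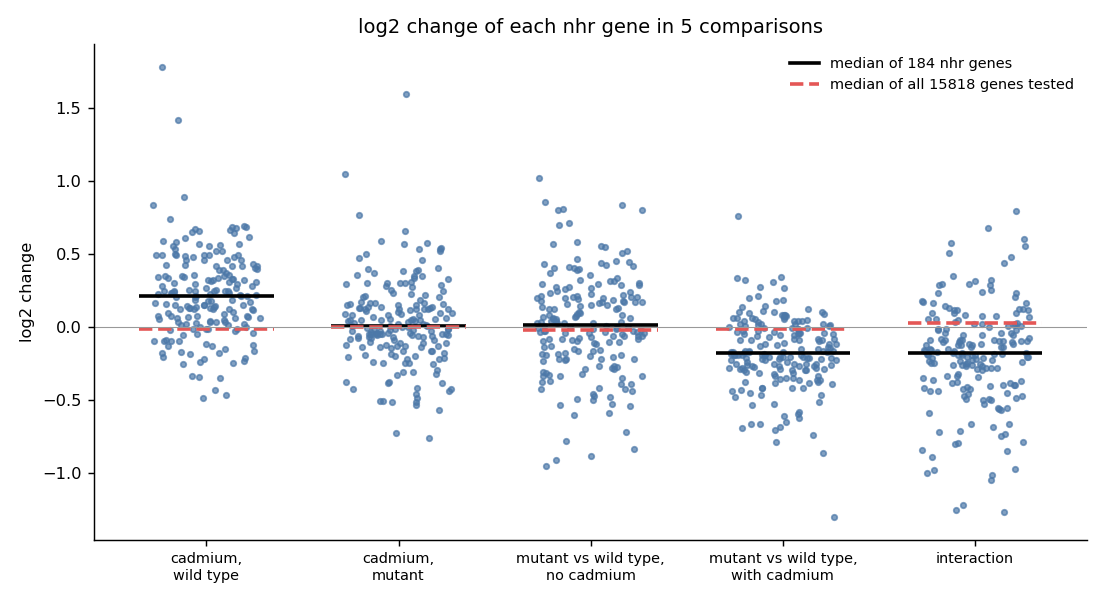
The log2 change of each of 184 nhr genes (points) in 5 comparisons, with the family's median (solid line) and the median of all 15818 genes tested (dashed line). The family's median is 0.22 for cadmium in the wild type and -0.18 both for mutant against wild type with cadmium and for the interaction, and it is within 0.02 of 0 in the other 2.

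The interaction asked whether the cadmium response of a receptor gene differed between the genotypes. By edgeR, DESeq2 and limma-voom 0 of 184 members passed, where 0.114% of all genes passed by edgeR, and the unadjusted p was below 0.05 at 5, 2 and 4 members, against 3.24% of all genes by edgeR. The family's median, mutant response minus wild-type response, was -0.18 against 0.03 for all genes, and 50 members were above 0 (27.2%, against 54.9%). The median was -0.06 without wild-type cadmium replicate 1, -0.12 without wild-type replicate 2 lacking cadmium, -0.27 without wild-type cadmium replicate 2, -0.27 without mutant cadmium replicate 1, and 0.01 with the sperm covariate. Sperm markers had a median of 1.26 in this contrast and neuron markers -0.25. The lowest p was that of nhr-17 (WBGene00003616, chromosome X, 12663795 to 12667854, - strand, 9 exon blocks). It had 47.5 and 48.5 CPM without and 66.3 and 53.6 CPM with cadmium in the wild type, and 57.5 and 62.3 CPM without and 51 and 49.8 CPM with cadmium in the mutant. The groups did not overlap in either genotype and lay in opposite orders, and the interaction of -0.57 ± 0.212 did not pass (adjusted p = 1.0). For 113 of the 184 members the interval reached beyond a 2-fold difference, so the interaction was the least precise contrast.

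Mutant and wild type were compared next. Without cadmium 0 members passed by edgeR, DESeq2 and limma-voom, where 0.126% of all genes passed by edgeR, and the unadjusted p was below 0.05 at 6, 3 and 6 members, against 10.8% of all genes by edgeR. Both mutant libraries lay above both wild-type libraries in 38 members (20.7%, against 19.3% of all genes) and below in 36 (19.6%, against 19.2%). With cadmium 0 members passed by all 3 tools, where 4.26% of all genes passed by edgeR, and the unadjusted p was below 0.05 at 7, 5 and 8 members, against 11.2% of all genes by edgeR. There 6 members lay wholly above (3.26%, against 20.8%) and 67 wholly below (36.4%, against 15.7%). Of the 4.26%, 3.83% were higher in the mutant and 0.43% lower, and 7 of 21 sperm markers were among the higher. Averaged over cadmium 1 member passed by each tool, against 6.56% of all genes by edgeR, of which 0.708% were lower and 5.85% higher in the mutant. Of 21 sperm markers 11 were among the higher. The unadjusted p was below 0.05 at 15, 10 and 13 members, against 15% of all genes by edgeR, and 66 members were above 0 (35.9%, against 45.5%) with a median of -0.05. The direction turned with the sperm covariate, where 127 members were above 0 with a median of 0.15. That covariate was higher in every mutant library than in any wild-type library, so this fit cannot separate it from genotype. Without the covariate the median ranged from -0.103 to -0.021 as each library was left out.

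The member that passed was nhr-105 (WBGene00003695, chromosome IV, 7050102 to 7053435, + strand, 10 exon blocks). Wild-type levels were 26.7 and 23.8 CPM without cadmium and 31 and 25 CPM with it. In the mutant they were 19.3 and 18.0 CPM without and 19.9 and 15.9 CPM with cadmium. Every mutant library lay below every wild-type library. Averaged over cadmium nhr-105 was lower in the mutant by a log2 change of -0.54 ± 0.135 (95% interval -0.834 to -0.249), which passed edgeR's test (adjusted p = 0.0295). It was -0.44 ± 0.191 without cadmium and -0.65 ± 0.19 with cadmium, neither of which passed (adjusted p = 0.429 and 0.0904), and the wild-type difference with cadmium was 0.15 ± 0.189 (adjusted p = 0.782, not passing).

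The sign of the nhr-105 difference was the same in all 15 alternatives, which ranged from -0.628 to -0.295, and 8 of the 15 passed. The call was lost when any library was left out other than wild-type replicate 2 lacking cadmium or wild-type cadmium replicate 2, with adjusted p = 0.063 without wild-type replicate 1 lacking cadmium, 0.13 without wild-type cadmium replicate 1, 0.0593 and 0.0974 without mutant replicates 1 and 2 lacking cadmium, and 0.0597 and 0.163 without mutant cadmium replicates 1 and 2. With the sperm median as a covariate the change was -0.30 (adjusted p = 0.495). The count of members passing was 7 without wild-type replicate 2 lacking cadmium and 4 without wild-type cadmium replicate 2.

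Beyond nhr-105, 10 members had every mutant library below every wild-type library, which makes 11 of 184 (5.98%, against 2.42% of all genes), and nhr-94 alone lay wholly above (0.543%, against 7.11%). The 10 were nhr-122, nhr-13, nhr-137, nhr-22, nhr-274, nhr-32, nhr-57, nhr-71, nhr-84 and nhr-85. For nhr-57 the mutant difference was -0.16 ± 0.221 without and -0.74 ± 0.218 with cadmium (adjusted p = 0.907 and 0.0927). Over the family 73 of 184 members were lower in the mutant in both conditions (39.7%, against 33.2% of all genes) and 30 were higher in both (16.3%, against 29.1%). These 2 comparisons use different libraries. Members had the same sign in both less often than all genes, with 103 of 184 (56.0%, against 62.4%). With cadmium 45 members were above 0 (24.5%, against 48.3%) with a median of -0.18, a comparison that shares its wild-type libraries with the cadmium comparison above. That median was -0.05 without wild-type cadmium replicate 1 and turned to 0.17 with the sperm covariate. Without cadmium 96 members were above 0 (52.2%, against 47.6%) and the median was 0.02. Adding the sperm covariate gave 0.14 and 131 members above 0. The median was -0.02 without wild-type replicate 2 and -0.03 without mutant replicate 2.

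Among receptors of moulting and development with a mean of at least 100 counts, nhr-85 and nhr-6 varied most between libraries, while nhr-23, described above, had close wild-type replicates. The Rev-erb orthologue nhr-85 (WBGene00003675, chromosome I, 13056091 to 13062122, - strand, 7 exon blocks), which helps time larval development, had wild-type levels of 8.13 and 4.55 CPM without and 8.64 and 4.07 CPM with cadmium. In the mutant it had 3.40 and 3.39 CPM without and 4.05 and 3.81 CPM with cadmium. The NR4A orthologue nhr-6 (WBGene00003605, chromosome III, 3573585 to 3578772, + strand, 12 exon blocks), needed for ovulation and the spermatheca, had 6.31 and 4.36, 7.41 and 3.81, 2.38 and 3.50, and 3.69 and 3.87 CPM in the same order. In both genes replicate 1 of each wild-type group stood far above replicate 2, as did the summed moulting markers. Averaged over cadmium the mutant difference was -0.81 ± 0.261 for nhr-85 and -0.73 ± 0.239 for nhr-6, and neither passed (adjusted p = 0.124 and 0.118). With the sperm covariate both turned to above 0, at 0.32 and 0.29. The gene npr-14 on the other strand shares 44.9% of the exon length of nhr-85 and had 17 to 48 counts a library, against 62 to 253 for nhr-85.

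Variation between libraries was modest for well-counted members. For 79 members with a mean of at least 100 counts the coefficient of variation over the 8 libraries had a median of 12.6%, was below 10% for 24 and over 30% for 4. The most even were nhr-46 at 5.49%, nhr-49 at 5.51% and nhr-2, an early embryonic receptor gene, at 5.82%. The 4 most variable were nhr-85 at 42.4%, nhr-6 at 37%, nhr-21 at 33.9% and nhr-88 at 32.5%, picked out after their values were seen. For nhr-21 the wild-type levels were 25.4 and 16.9 CPM without cadmium, 33.9 and 18.5 CPM with it, against 15 to 17.2 CPM in the mutant libraries, so it too was highest in both wild-type replicates 1. For nhr-88 the wild type had 20.3 and 14.6 CPM without and 15.8 and 9.14 CPM with cadmium, and the mutant had 8.63 to 12.5 CPM.

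**Figure D5:**
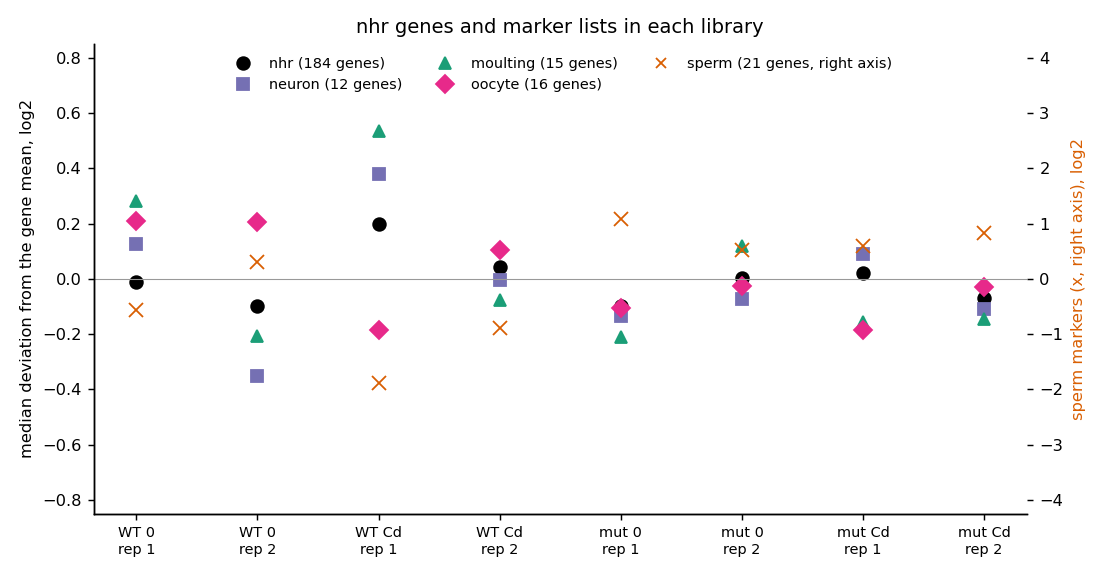
Median deviation of each gene set from its own gene means, in log2, for each library, with sperm markers on the right axis. The nhr genes are highest in wild-type cadmium replicate 1, at 0.197, where the moulting markers stand at 0.534, the neuron markers at 0.378 and the sperm markers at -1.89.

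Coregulators, other receptors and target genes were read from lists. Of the 4 coregulators mdt-15, a Mediator subunit that works with NHR-49 and HIZR-1, cbp-1, din-1 and gei-8, 0 passed in any contrast by edgeR, and their median change with cadmium in the wild type was -0.25. Of 5 tested nuclear receptors with other symbols 0 passed with cadmium in the wild type by edgeR, with hizr-1 at 0.62 ± 0.31, the dafachronic acid receptor gene daf-12 at 0.20 ± 0.267 and the sex determination receptor gene sex-1 at 0.02 ± 0.166. Among 4 tested genes of dafachronic acid hormone metabolism 0 passed, and hsd-1 was too low to test. Averaged over cadmium 2 of 9 NHR-49 targets were higher in the mutant by edgeR, where 5.85% of all genes were higher. They were fat-7 by 0.53 ± 0.118 (adjusted p = 0.0171) and the fatty acid oxidation gene hacd-1 by 0.42 ± 0.099 (adjusted p = 0.0228), while nhr-49 was at 0.02 ± 0.092. Of the 9 targets 6 were above 0. The fasting gene acs-2, an acyl-CoA synthetase, was at -0.50 ± 0.139, which did not pass (adjusted p = 0.053). Also below 0 were icl-1 at -0.455 ± 0.158 and fat-6 at -0.152 ± 0.109, and neither passed.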

How the data were processed

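Per the labels' protocols, RNA of whole animals was extracted with Trizol and treated with Ribo-Zero. The submitters' processing notes name STAR 2.0.4b, featureCounts 1.45, Subread and the build WBcel235. The annotation release and the strand setting are not given in the sources used here. The deposited count column held whole reads per gene, and the deposited CPM and RPKM columns recomputed from counts and gene length to within 1e-06, per the file headers. Symbols came from a gene name table that matched all 269 nhr genes, and coordinates are those of the files.

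Counts were tested with edgeR 4.0.16 (R 4.3.3) in quasi-likelihood fits of all 8 libraries with 4 group means, TMM scaling and filterByExpr (minimum count 10, minimum total 15), and p-values were adjusted over 15818 genes. The threshold was an adjusted p of 0.05. Alternatives were DESeq2 1.42.0, limma-voom (limma 3.58.1), RLE size factors, 2 other filters, only the 4 libraries compared, a replicate block, a sperm covariate and leaving out each library. The sperm covariate, the median of the sperm markers in each library, differed between groups, so its fits cannot separate it from genotype or cadmium. The edgeR script was tested on simulated data. No 2 libraries agreed within sampling noise. The chi-square per degree of freedom between 2 libraries was 22.01 to 55.89 within groups and 8.569 to 111.3 between groups. Some libraries of unlike groups were thus closer than replicates. CPM and RPKM in the text use TMM-scaled library sizes, except the floors, which use total counts. The floors cover counting error only, since reads are not independent molecules. SE is the log2 change over the square root of F.

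Named members were those that passed, the 3 with the smallest p in each direction of each contrast, the 10 highest in RPKM, the role lists and the edge of the count rule. Members and lists were chosen with earlier results of these data known.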

Additional observations from a re-analysis of the deposited data

How the results depend on the processing

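The count of nhr genes passing stayed at 0 under every alternative for cadmium in the wild type, in the mutant and averaged over genotype, and for the interaction. For the mutant without cadmium it was 1 with no filter on low counts (nhr-88) and 0 to 1 over the libraries left out. With cadmium it was 2 with no filter (nhr-105, nhr-21), 2 with only the 4 libraries (nhr-105, nhr-57) and 0 to 2 over the libraries left out. Averaged over cadmium, the main count of 1 was 6 with no filter, 0 with the sperm covariate and 0 to 7 over the libraries left out, all lower in the mutant. The cause of these shifts was not tested. With the sperm covariate 3 named genes turned sign: nhr-35 in the mutant with cadmium to 0.077, and averaged over cadmium nhr-6 to 0.287 and nhr-85 to 0.315. Over the named genes and levels 641 values kept direction and side of the threshold, 13 newly passed, 7 lost the call (all for nhr-105) and 3 turned sign. The replicate block changed no call: nhr-105 had -0.54 (adjusted p = 0.0273). Replicate numbers are not stated to mark a shared batch, and differences of replicate 1 minus 2 correlated between groups by -0.431 to 0.42 across genes. Levels per length of the 10 highest genes moved by less than their SD over libraries on the deposited scale. Precision for cadmium in the wild type was lowest at low depth, with a median SE of 0.45 below a mean of 30 counts and 0.18 over 300.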
